A study of Mus musculus with 8 samples.

Results

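The genes described here are 10 early response genes of cyclic AMP (cAMP) signaling, Nr4a1, Nr4a2, Nr4a3, Crem, Fos, Egr1, Areg, Pde4b, Pde4d and Dusp1, measured in CT26 tumors of mice. They were taken as every non-control probe of the array annotated with one of these gene names, which gave 29 probes of 56567 in all. For a test, 1 or more groups had to have the probe well above background on each of their 2 arrays, and 16 of the 29 did, among 31912 probes tested in the series. All 10 genes had a tested probe, of 21497 gene names with one, and each is given by its brightest probe unless another probe is named. The other 13 probes of the 10 genes did not pass this filter.

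Prostaglandin E2 (PGE2), made by cyclooxygenase 2 from the gene Ptgs2, binds the receptor EP4 (Ptger4), which activates adenylyl cyclase through the stimulatory G protein. The cAMP formed activates protein kinase A, which phosphorylates the transcription factor CREB at cAMP response elements (CREs) of its target genes, while phosphodiesterases degrade cAMP. Genes of this class are transcribed within minutes of a rise in cAMP, and most of them are also induced by growth factors, by stress and, in lymphocytes, by antigen, so their RNA is no specific readout of EP4.

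CT26 is a murine colorectal carcinoma line, and 500000 cells were implanted under the skin of the flank of BALB/c mice. Once tumors had reached 100 to 200 mm3, mice received vehicle, the EP4 antagonist TP-16 (BY001) by mouth every day at 75 mg/kg, an antibody to PD-1 into the peritoneum at 50 µg per mouse 2 times a week, or both agents, for 2 weeks. RNA of whole tumors from 2 samples per group was hybridised to 8 one-colour arrays. The labels do not say whether a sample was 1 tumor or a pool, and the p-values measure only the spread between these samples. The groups share the cell line, the mouse strain and the implantation site, and carry no engineered allele according to the labels. The mice were female and, per the methods, 6 to 10 weeks old when bought.

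All values are log2 signals relative to the 75th percentile of the same array, and a difference of 1 is a fold of 2. The arrays had 51.4% to 59.7% of probes well above background and none of the probes used was saturated. All 8 arrays were on 1 slide, with both TP-16 groups in columns 3 and 4 and both antibody groups in row 2, so treatment and place on the slide cannot be told apart. The intensity at the 75th percentile, by which arrays were scaled, was 530.2 to 733.6 on the 4 arrays with TP-16 and 371.1 to 414.9 on the 4 without it, and the lowest log2 signal well above background was -4.93 to -4.61 and -4.27 to -3.82, so detection reached lower with TP-16. The second TP-16 array and the second antibody array stood apart in epidermal keratins, with Krt5 at 2.16 and 2.08 against -4.54 to -1.60 on the other 6 arrays. In whole tumors, fewer cells of a type and less RNA per cell cannot be told apart. Of the carcinoma markers, Krt20 stood between 5.49 and 6.52 on the 8 arrays, whereas Epcam and Vil1 did not pass the filter on dim probes. The other carcinoma markers were less even. With both agents the median log2 difference of the tested markers from vehicle was -1.23. Krt8 (-2.68), Krt18 (-1.39), Cldn7 (-1.06) and Cdx2 were lower there, and Cdh1 was higher (0.82).

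The sequences before the transcription starts of these genes are shown first, because CREs of cAMP target genes can lie there. Promoters were given by RefSeq for 8 of the 10 genes (GRCm38.p6), with 11 windows of 250 bases before a start. A full CRE, TGACGTCA, which reads the same on both strands, was found before Areg, 61 bases from its start, and before Dusp1, 143 bases from its start, and in 1.55% of all 32851 windows. The partial site TGACG was searched on both strands (CGTCA on the other strand) and counted only outside a full site. A full or partial site was found in 7 of the 11 windows, of 7 genes, and in 17.8% of all windows. Nr4a1, Nr4a2 and Nr4a3 had 4 partial sites each, and at least 2 partial sites were found in 2.42% of all windows. No site was found in the window of Pde4d or in 3 of the 4 windows of Pde4b. A match is a description of these letters only. The windows of the members on which the results turn, and of 2 with several sites, read as follows, 5′ to 3′ on the strand of the gene, with full and partial sites in capitals.
Areg (chr5:91139349-91139598, plus strand): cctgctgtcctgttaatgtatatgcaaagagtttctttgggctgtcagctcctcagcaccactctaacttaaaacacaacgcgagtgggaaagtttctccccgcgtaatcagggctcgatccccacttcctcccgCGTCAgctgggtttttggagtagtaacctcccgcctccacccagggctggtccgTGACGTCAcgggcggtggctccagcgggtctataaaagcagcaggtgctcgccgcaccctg
Nr4a3 (chr4:48045055-48045304, plus strand): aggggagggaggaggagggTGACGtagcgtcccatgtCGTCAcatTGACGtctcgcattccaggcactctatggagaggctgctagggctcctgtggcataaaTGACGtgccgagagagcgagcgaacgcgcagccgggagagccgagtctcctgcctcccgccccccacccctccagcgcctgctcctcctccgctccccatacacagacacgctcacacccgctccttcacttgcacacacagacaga
Fos (chr12:85473640-85473889, plus strand): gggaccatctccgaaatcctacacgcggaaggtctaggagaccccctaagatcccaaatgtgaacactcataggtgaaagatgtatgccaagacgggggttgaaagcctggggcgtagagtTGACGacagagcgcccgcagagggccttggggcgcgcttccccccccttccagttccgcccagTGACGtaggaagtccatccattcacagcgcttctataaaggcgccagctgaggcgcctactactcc
Nr4a1 (chr15:101266596-101266845, plus strand): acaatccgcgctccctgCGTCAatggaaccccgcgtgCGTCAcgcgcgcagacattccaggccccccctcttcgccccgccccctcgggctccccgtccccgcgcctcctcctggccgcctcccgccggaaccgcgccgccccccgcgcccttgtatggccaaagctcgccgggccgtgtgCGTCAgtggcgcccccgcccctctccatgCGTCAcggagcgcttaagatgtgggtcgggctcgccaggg
Dusp1 (chr17:26508473-26508722, minus strand): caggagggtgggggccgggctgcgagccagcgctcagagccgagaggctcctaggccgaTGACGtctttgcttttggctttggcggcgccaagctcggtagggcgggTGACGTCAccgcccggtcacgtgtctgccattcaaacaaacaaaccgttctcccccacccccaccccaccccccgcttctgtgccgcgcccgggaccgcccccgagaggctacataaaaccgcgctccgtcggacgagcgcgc

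**Figure D1:**
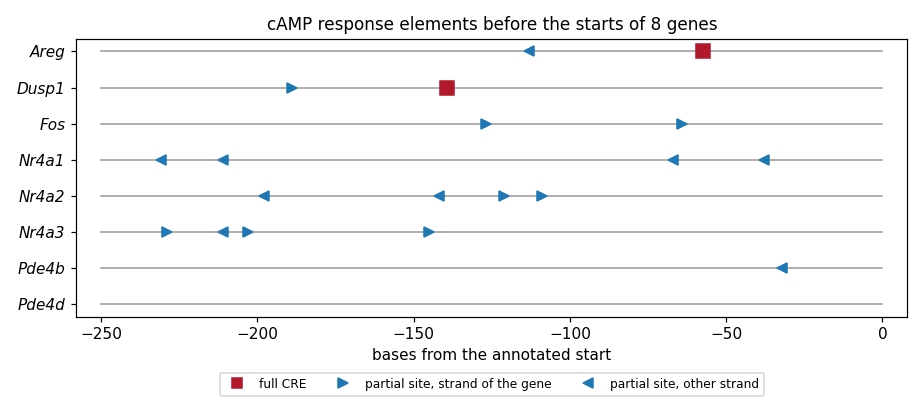
Positions of cAMP response elements in the 250 bases before the annotated start of 8 genes (x axis, bases from the start; for Pde4b the first of its 4 windows), with squares for the full site and triangles for partial sites on either strand. Areg and Dusp1 carry a full site, and Nr4a1, Nr4a2 and Nr4a3 carry 4 partial sites each.

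The 10 genes did not move as a group. Compared with vehicle, the combination changed 4 of them at an adjusted p of 0.05 (limma), with Areg and Nr4a3 lower and Fos and Crem higher, against 35.6% of all genes tested. At a fold of at least 2, 2 of the 10 passed, Areg and Fos, against 14.2% of all genes. The median log2 difference of the 10 genes was 0.15 in the combination, beside -0.24 over all genes, and -0.14 in the TP-16 group, beside -0.15 over all genes. In the combination the median of all probes tested was itself at -0.20, and at -0.01 after quantile normalization, which put the median of the 10 genes at 0.37 in the combination and at 0.07, of opposite sign, in the TP-16 group. Neither single agent changed any of the 10 genes at adjusted p, where 0.0558% of all genes passed with TP-16 and 0.0744% with the antibody. With normexp background correction Nr4a3 passed with TP-16, where 19.8% of all genes did. At an unadjusted p of 0.05 in limma, 3 of the 10 passed with TP-16 (Areg, Nr4a1 and Nr4a3, all lower), against 27.9% of all genes. These comparisons share the vehicle arrays. In the combination, 0 of the 10 genes passed at adjusted p in a limma fit of only the groups compared or in the methods' t-test. Without the second TP-16 and second antibody arrays together, 0 passed in the combination and 0 over both antibody arms, with an adjusted p of 0.0635 for Areg and Fos in the combination at the same differences. With only the groups compared and in the t-test, Areg and Fos still passed a fold of 2 at unadjusted p in the combination. In the main fit 17.1% of all genes passed that rule. The share of all genes in these alternative settings is not given here, so a count of 0 is not a result about the 10 genes.

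**Figure D2:**
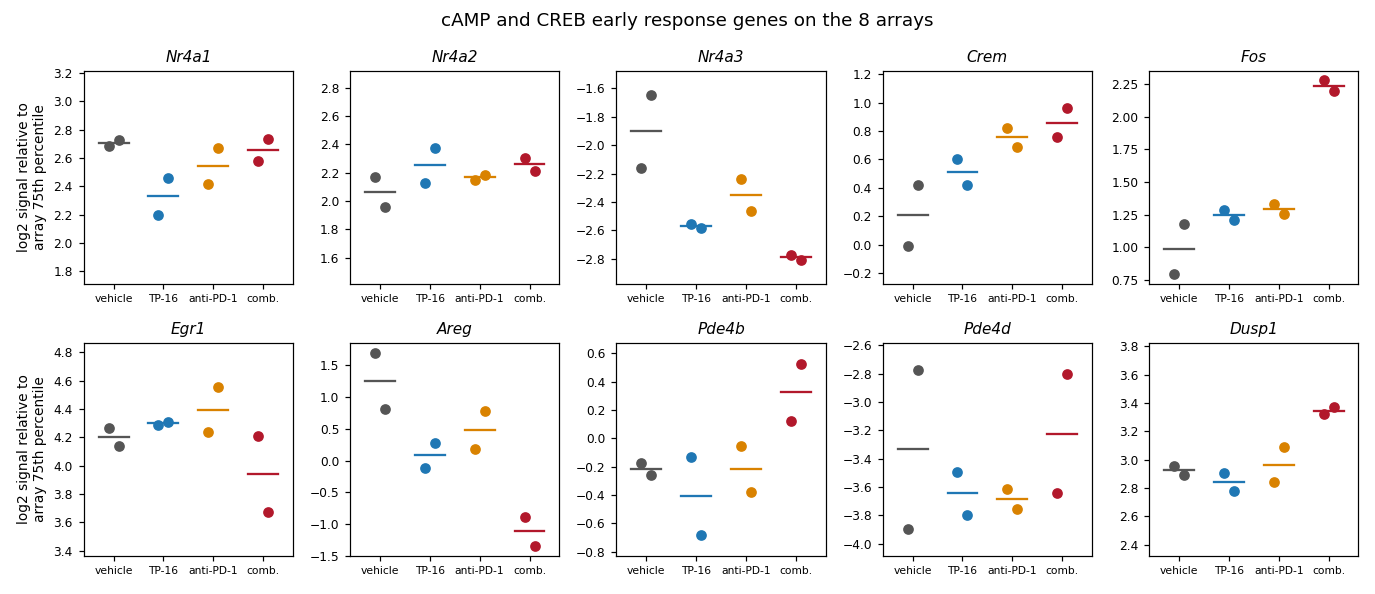
Log2 signal relative to the 75th percentile of the array (y axis) of the 10 genes in the 4 groups, with 1 point per array and a line at the mean of each group. Fos and Dusp1 are highest on the 2 combination arrays, and Areg is lowest on them.

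Areg, the growth factor amphiregulin and a ligand of the epidermal growth factor receptor, fell the most. Its log2 signal was 1.70 and 0.80 with vehicle, -0.11 and 0.27 with TP-16, 0.19 and 0.78 with the antibody, and -0.89 and -1.35 with the combination. Both combination arrays lay below all 6 other arrays, and both arrays of each single agent lay below both vehicle arrays. Of all genes, 50.3% lay below vehicle without overlap in the combination, 41.5% with TP-16 and 35.3% with the antibody. The combination lowered Areg 5.16-fold (log2 difference -2.37, 95% confidence interval -3.28 to -1.46, limma adjusted p = 0.0114). With TP-16 alone the log2 difference was -1.17 ± 0.37 (SE) at an adjusted p of 0.133 (unadjusted p = 0.0202 in limma), and with the antibody alone -0.77 ± 0.37 at an adjusted p of 0.394. Without the first vehicle array these became -0.72 and -0.32. When a fold of 2 was asked for at that unadjusted p, Areg was the only one of the 10 genes that passed with TP-16, against 6.67% of all genes.

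The combination was then set against each single agent. Areg was lower in the combination than with the antibody by a log2 difference of -1.60 (limma adjusted p = 0.0818) and than with TP-16 by -1.20 (adjusted p = 0.16), and it was the only one of the 10 to pass both a fold of 2 and the unadjusted p in each, against 4.72% and 4.89% of all genes. At adjusted p, 0 of the 10 passed in either, where 0.014% and 0% of all genes did, although with normexp background correction 4 of the 10 passed against the antibody, where 23.9% of all genes did, and 1 against TP-16, where 1.01% did. At an unadjusted p of 0.05 and any fold in limma, 3 of the 10 passed against the antibody (Areg, Dusp1 and Fos), beside 29.2% of all genes, and 4 against TP-16 (those 3 and Pde4b), beside 23.8%. When the 4 samples with TP-16 were set against the 4 without it, Areg was lower 2.61-fold (log2 difference -1.39 ± 0.26, limma adjusted p = 0.0273). The 2 sets of 4 arrays overlapped, since the second TP-16 array stood above the first antibody array. Without both arrays high in epidermal keratins the difference was -1.34 (limma adjusted p = 0.183), and the part of epidermal cells was not tested. Leaving out any one of the 6 treated arrays ended this call, with adjusted p between 0.0521 and 0.104.

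Among the 3 NR4A orphan nuclear receptors, which are induced by cAMP and by T cell receptor signaling, only Nr4a3 passed at adjusted p. Its log2 signal was -2.16 and -1.64 with vehicle, -2.56 and -2.59 with TP-16, -2.24 and -2.47 with the antibody, and -2.77 and -2.81 with the combination. All 4 samples with TP-16 lay below all 4 without it, and among the 10 genes this held only for Nr4a3, against 20.9% of all genes whose arrays did not overlap. Over both arms the log2 difference was -0.55 ± 0.13 (limma adjusted p = 0.0449), and 3 of the 10 genes passed here, Areg and Nr4a3 lower and Fos higher, against 19.8% of all genes. After quantile normalization the Nr4a3 difference was -0.40 at an adjusted p of 0.0895, and leaving out any single array but the first vehicle array ended the call (adjusted p between 0.0508 and 0.14). The combination lowered Nr4a3 1.85-fold (log2 difference -0.89 ± 0.19, adjusted p = 0.0216), and with TP-16 alone the log2 difference was -0.67 (adjusted p = 0.115). Its other 2 probes were not well above background on any array.

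Nr4a1 and Nr4a2 did not pass at adjusted p in any comparison. Nr4a1 was 2.69 and 2.73 with vehicle, 2.20 and 2.46 with TP-16, 2.42 and 2.67 with the antibody, and 2.58 and 2.73 with the combination. The TP-16 arrays lay below the vehicle arrays by a log2 difference of -0.38 (95% confidence interval -0.75 to -0.01, limma unadjusted p = 0.0462, adjusted p = 0.187), and the combination overlapped vehicle (-0.05, interval -0.42 to 0.31). Nr4a2 lay between 1.96 and 2.38 on the 8 arrays, with a log2 difference of 0.19 in the combination (interval -0.14 to 0.53), and its second probe gave 0.04.

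Fos, a subunit of the AP-1 transcription factor, moved the other way from Areg. Its log2 signal was 0.80 and 1.18 with vehicle, 1.29 and 1.21 with TP-16, 1.33 and 1.25 with the antibody, and 2.28 and 2.20 with the combination. Both combination arrays stood clear of all 6 others, which spanned only 0.80 to 1.33. Of all genes, 23.2% stood higher without overlap in the combination than with vehicle, 23.2% than with the antibody and 23% than with TP-16. The combination raised Fos 2.38-fold (log2 difference 1.25, 95% confidence interval 0.88 to 1.62, limma adjusted p = 0.0102). With TP-16 alone the log2 difference was 0.26 (adjusted p = 0.316) and with the antibody alone 0.30 (adjusted p = 0.401). The combination stood above the antibody by 0.95 (adjusted p = 0.0722) and above TP-16 by 0.99 (adjusted p = 0.103). Over both antibody arms, Fos was higher with TP-16 by 0.60 ± 0.11 (limma adjusted p = 0.0241), although the 2 sets of 4 arrays overlapped and leaving out any one of the 6 treated arrays ended the call (adjusted p between 0.0586 and 0.0909). The combination exceeded the sum of the single agents by a log2 value of 0.69 ± 0.21 (limma unadjusted p = 0.0188, adjusted p = 0.58). At an unadjusted p of 0.05 Fos and Dusp1 passed, against 7% of all genes, and at adjusted p 0 of the 10 genes and 0% of all genes did.

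Crem encodes activators and, from an inner promoter, the repressor ICER of CRE-driven transcription. Its log2 signal was -0.01 and 0.42 with vehicle, 0.60 and 0.42 with TP-16, 0.82 and 0.69 with the antibody, and 0.76 and 0.96 with the combination. Vehicle was lowest, although its second array was level with the second TP-16 array. The combination raised Crem 1.57-fold (log2 difference 0.65 ± 0.18, limma adjusted p = 0.0404), and a second probe gave 0.82 (adjusted p = 0.023). The call for the brightest probe ended with the replicate number as a block (0.0601), with only the groups compared (0.117) and with no filter on dim probes (0.0623). Another tested probe, designed to a different transcript, gave -0.36 (adjusted p = 0.229), so the probes of Crem disagreed in sign. With the antibody alone the log2 difference was 0.55 (adjusted p = 0.302), and at an unadjusted p of 0.05 Crem was the only one of the 10 to pass there, against 15.1% of all genes.

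**Figure D3:**
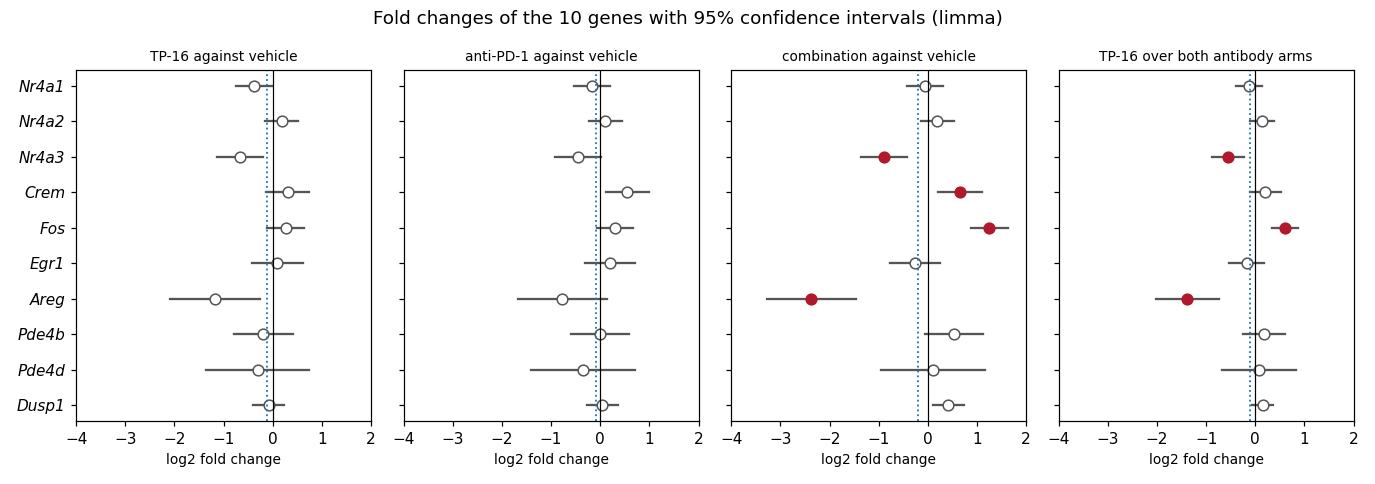
Log2 fold changes (x axis) of the 10 genes in 4 comparisons, with 95% confidence intervals from limma, filled points for an adjusted p of at most 0.05 and a dotted line at the median of all probes tested. Filled points appear only in the combination (Nr4a3, Crem, Fos and Areg) and over both antibody arms (Nr4a3, Fos and Areg).

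Egr1, a zinc finger transcription factor of the immediate early class, lay between 3.68 and 4.55 on the 8 arrays and did not pass in any comparison. It was 4.27 and 4.14 with vehicle and 4.21 and 3.68 with the combination, a log2 difference of -0.26 (95% confidence interval -0.77 to 0.25).

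Dusp1 encodes a phosphatase that inactivates MAP kinases. Its log2 signal was 2.96 and 2.89 with vehicle, 2.91 and 2.78 with TP-16, 2.84 and 3.09 with the antibody, and 3.32 and 3.37 with the combination. As for Fos, both combination arrays stood above the other 6, and 23.2% of all genes stood above vehicle there without overlap. The log2 difference from vehicle was 0.42 ± 0.13, with an adjusted p of 0.0517 in limma.

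Pde4b and Pde4d encode cAMP phosphodiesterases that limit the signal that induces them. The log2 signal of Pde4b was -0.18 and -0.26 with vehicle, -0.13 and -0.68 with TP-16, -0.05 and -0.38 with the antibody, and 0.12 and 0.52 with the combination. The combination arrays were again the highest, beside 23.2% of all genes that stood above vehicle there without overlap. The differences from vehicle were 0.54 (limma adjusted p = 0.133) and 0.42 for a second probe (adjusted p = 0.106). Pde4d was dim, between -3.90 and -2.77 on its brightest probe, and its vehicle arrays spanned that whole range. One of its 3 tested probes was not well above background with vehicle or the antibody and entered the test only through TP-16 and the combination. It was at least 1.33-fold above vehicle in the combination, and its limma adjusted p of 0.0337 belongs to the fitted difference of 1.48. The other 2 gave log2 differences of 0.11 (adjusted p = 0.858) and 0.99 (adjusted p = 0.195).

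**Figure D4:**
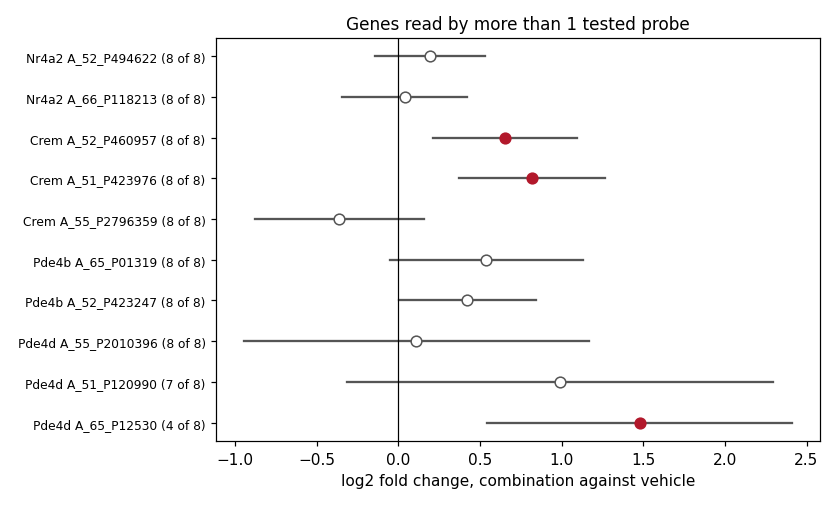
Log2 fold changes of the combination against vehicle (x axis) with 95% confidence intervals from limma for the genes read by more than 1 tested probe, with the number of arrays on which the probe was well above background in brackets and filled points for an adjusted p of at most 0.05. The probes of Crem fall on both sides of 0, and of the 3 probes of Pde4d only the one seen on 4 of 8 arrays is filled.

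The rest of the pathway was described from lists of other genes, counted at a fold of at least 2 and an adjusted p of 0.05 in the combination, which 5.59% of all genes passed upward and 8.62% downward. The fold counted is the fitted one, also for genes not well above background with vehicle, whose fold is known only as a lower bound. Of 32 genes tested between PGE2 and CREB, 4 passed upward and 0 downward, and for 1 of the 4, Pkia, the bound is below 2. Ptger4, the receptor that TP-16 blocks, was -0.37 and 0.01 with vehicle and 1.29 and 1.87 with the combination (log2 difference 1.77 ± 0.31, limma adjusted p = 0.0135). Ptger2, which encodes EP2, the other PGE2 receptor that raises cAMP, rose by 2.10 ± 0.33 (adjusted p = 0.0113), and it was higher on all 4 arrays with TP-16 than on all 4 without it (1.17, adjusted p = 0.0296). Arrb1, the receptor adaptor beta-arrestin 1, rose by 1.09 (adjusted p = 0.0102). The fourth gene, Pkia, an inhibitor of protein kinase A, was well above background only with the combination, through which alone it entered the test, and at least 1.01-fold above vehicle.

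For cyclooxygenase 2, CREB and its coactivators, no comparison with vehicle passed at adjusted p. Ptgs2 lay between 2.21 and 2.89 on the 8 arrays, with a log2 difference of 0.13 in the combination (limma adjusted p = 0.681). Creb1 gave -0.20 (adjusted p = 0.215), and its coactivators Crtc1, Crtc2 and Crtc3 gave 0.07, -0.11 and 0.17 (adjusted p between 0.229 and 0.749). With TP-16 alone Crtc2 stood at 1.42 and 2.16, below 2.65 and 2.70 with vehicle (log2 difference -0.88 ± 0.25, limma unadjusted p = 0.0133, adjusted p = 0.115), and over both antibody arms it gave -0.52 (adjusted p = 0.0912). Crtc3 lay the other way, at 2.09 and 2.02 with TP-16 and 1.72 and 1.81 with vehicle (log2 difference 0.29, limma unadjusted p = 0.0298, adjusted p = 0.155), and all 4 arrays with TP-16 stood above all 4 without it. Rapgef4, a cAMP-regulated exchange factor, was well above background on both arrays only with the combination, yet its signal there (-4.24 and -4.37) was no higher than with vehicle (-4.07 and -3.88), where the limit of detection was higher, and no fold can be given.

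Of 10 other phosphodiesterases tested, 3 passed upward and 1 downward, and for Pde10a among them the bound is below 2. Pde4c, of the same family as Pde4b and Pde4d, stood at 7.22 and 7.11 with vehicle, 6.22 and 6.13 with TP-16, 6.68 and 6.81 with the antibody, and 5.97 and 5.69 with the combination. All 4 arrays with TP-16 lay below all 4 without it (log2 difference -0.95 ± 0.10, limma adjusted p = 0.0209), and the combination lowered it further below vehicle (-1.34, adjusted p = 0.0102). Pde1b rose by 1.01 (limma adjusted p = 0.0439). Pde8b, not well above background with vehicle, entered the test only through TP-16 and the combination and was at least 2.10-fold above vehicle in the latter. Its adjusted p of 0.0102 in limma belongs to the fitted difference of 1.94. Pde10a was well above background only with the combination, through which alone it entered the test, and was at least 1.15-fold higher.

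**Figure D5:**
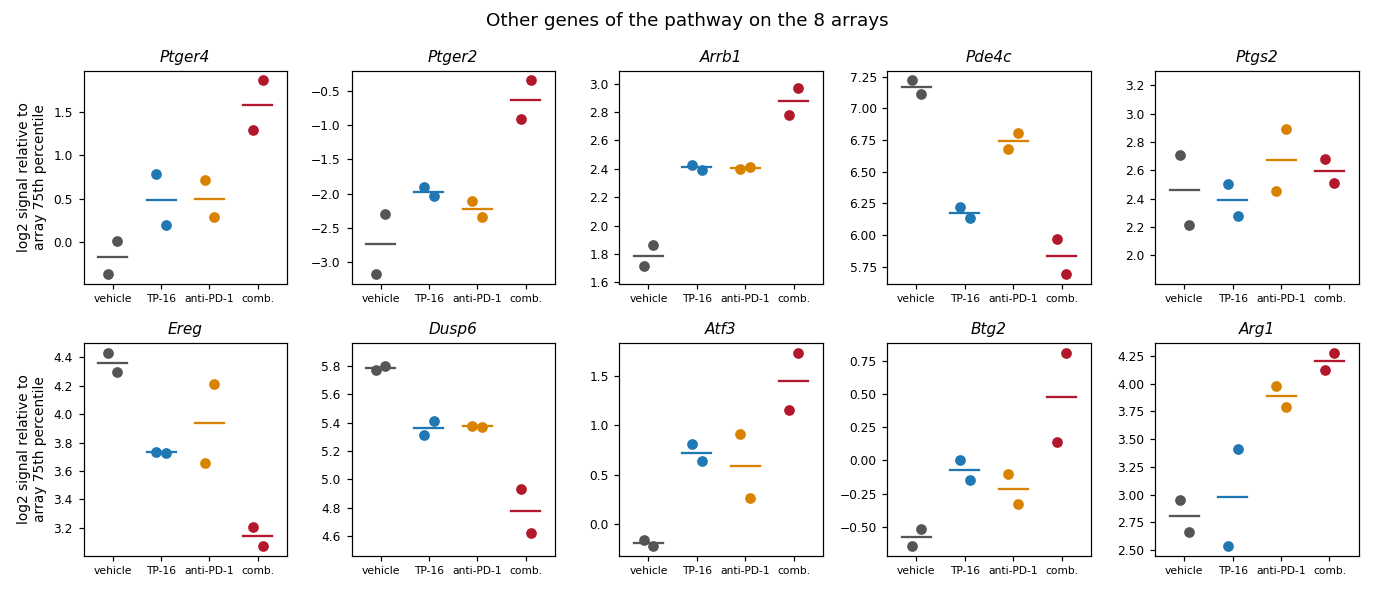
Log2 signal relative to the 75th percentile of the array (y axis) of 10 other genes of the pathway in the 4 groups, with 1 point per array and a line at the mean of each group. Ptger4, Ptger2, Arrb1, Atf3, Btg2 and Arg1 are highest and Pde4c, Ereg and Dusp6 lowest on the 2 combination arrays, and Ptgs2 overlaps between vehicle and every treated group.

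Of 24 other cAMP target genes tested, 5 passed upward, Il10 with a bound below 2, and 3 downward. Ereg, the growth factor epiregulin, which binds the same receptor as amphiregulin, was 4.43 and 4.30 with vehicle, 3.73 and 3.73 with TP-16, 3.65 and 4.22 with the antibody, and 3.21 and 3.07 with the combination. Like Areg, Ereg was lowest on both combination arrays, and its log2 difference from vehicle there was -1.22 ± 0.20 (limma adjusted p = 0.0118). Il6 and Lif were the other 2 that fell, and both encode cytokines of the same family. Those that rose were Arg1, which encodes arginase 1 (1.39, adjusted p = 0.0211), Gem (1.35, adjusted p = 0.0267) and Rgs1 (1.21, adjusted p = 0.0214), together with Rgs2 and Il10. Il10, an immunosuppressive cytokine, entered the test only through TP-16 and the combination and was at least 1.70-fold above vehicle in the latter. Its adjusted p of 0.0181 in limma belongs to the fitted difference of 1.83.

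Of 31 other immediate early genes tested, 2 rose and 1 fell. Atf3, a stress-induced transcription factor, rose by 1.64 (limma adjusted p = 0.0127) and Btg2, an antiproliferative gene, by 1.06 (adjusted p = 0.0236). Dusp6, a phosphatase of ERK and itself a target of ERK signaling, was 5.77 and 5.80 with vehicle and 4.93 and 4.62 with the combination and fell by 1.01 on the log2 scale (adjusted p = 0.0102). Among 12 heat shock and dissociation genes, 0 passed at adjusted p or at an unadjusted p of 0.05 with a fold of 2, but their summed signal, in multiples of the 75th percentile, was lower without overlap in the combination (833 to 897) and with TP-16 (931 to 973) than with vehicle (1040.1 to 1142). Of all genes, 50.3% were lower than vehicle without overlap in the combination and 41.5% with TP-16. The sum is weighted to bright genes, and the list median was -0.15 in both comparisons, beside -0.24 and -0.15 over all genes.

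Markers of cell types moved with the same comparison. Of 14 tested markers of CD8 T cells and NK cells, 7 rose in the combination, and their summed signal, in multiples of the 75th percentile, was 19.8 to 77.2 with vehicle and 114 to 154 with the combination. Of 11 markers of T cell receptor activation 10 rose, with sums of 17.4 to 25.9 and 36.4 to 41.2, and of 10 macrophage markers 5 rose, with sums of 199 to 230.0 and 301 to 416, while Cd14 of that list fell by 0.51 on the log2 scale (limma adjusted p = 0.0337). Of 10 fibroblast markers 4 rose, with sums of 263 to 299 and 499 to 536. All 6 red blood cell markers tested fell, with sums of 592 to 918 and 134 to 169. Of 10 neutrophil markers 2 fell at a fold of 2, S100a8 and S100a9, while Mmp8 rose by 0.80 on the log2 scale (limma adjusted p = 0.0366) and the median of the list was 0.40. Of 6 carcinoma markers tested, Krt18 fell by 1.39 on the log2 scale (limma adjusted p = 0.0196). Cdx2, which entered the test only through vehicle, was at least 6.90-fold lower. Krt8 and Cldn7 had log2 differences of -2.68 and -1.06 (limma adjusted p = 0.0525 and 0.0505). Cdh1 had 0.82 (adjusted p = 0.22) and Krt20 -0.005 (adjusted p = 0.993). The sums of the whole list were 74.4 to 82.8 and 58.7 to 85.7, and they are weighted to Krt20, its brightest gene. Cd8a, a defining marker of CD8 T cells, was -5.02 and -1.43 with vehicle and 0.21 and 0.86 with the combination. Over both antibody arms, where Areg, Nr4a3 and Fos were called, 5 of the 6 red blood cell markers passed downward at a fold of 2 and adjusted p. The carcinoma marker Cdx2 also did (-2.10, limma adjusted p = 0.0209), and Adgre1 and Irf4 passed upward. Of all genes, 2.21% passed downward and 0.884% upward. The red blood cell sums were 134 to 204 on the arrays with TP-16 and 284 to 918 on those without it. With TP-16 alone, no marker passed at adjusted p and a fold of 2. When limma's unadjusted p was used with that fold, all 6 red blood cell markers and Cdx2 were lower, against 5.11% of all genes. Higher were 6 of 14 markers of CD8 T cells and NK cells, 4 of 11 of T cell receptor activation and the muscle gene Myh1, against 1.56% of all genes. The list medians of red blood cells and of CD8 T cells and NK cells were -1.94 and 1.59. The part of these cell types in the results for Areg, Fos, Crem, Nr4a3 and the other genes was not tested.

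Across the 8 arrays, as a description of values that share these groups, Fos and Areg had a Pearson r of -0.93, Dusp1 and Fos 0.84, Areg and Nr4a3 0.71, and Crem and Areg -0.83. Among 3741 probes that varied on all 8 arrays, the gene most like Areg was Cyp2c55 (r = 0.99), the one most like Nr4a3 was Chrd (0.99), the one most like Fos was H19 (0.97) and the one most like Pde4b was Zfp521 (1.00). Crem was most like Irf1 (0.99), with Icos, a costimulatory receptor of T cells, among its first 3 (0.98), and Dusp1 was most like Zbtb16 (0.95). For Nr4a1 and Nr4a2 no probe exceeded r = 0.86.

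The calls in the combination needed its second array. Without it, the adjusted p in limma was 0.0774 for Areg, 0.065 for Fos, 0.115 for Nr4a3 and 0.191 for Crem, with log2 differences of -2.14, 1.29, -0.87 and 0.55. Without the first combination array, Areg and Fos still passed (0.0325 and 0.0286), and Nr4a3 and Crem did not (0.07 and 0.079). The call for Crem also ended without the first vehicle array (0.106) and without any one array of either single agent (0.0617 to 0.0714). None of the other pathway genes named above passed without the second combination array, where the lowest adjusted p in limma was 0.065, as for Arrb1 and Pde4c.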

How the data were processed

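RNA from CT26 tumors of 4 groups, 2 samples each, was read on 8 one-colour Agilent mouse arrays. The authors deposited the scanner output of Agilent Feature Extraction 10.7.1.1 (submitters' processing notes), whose spot intensity was background-subtracted and detrended. The authors also deposited log2 values, attributed by the methods to GeneSpring, used here as an alternative. Control spots and 959 outlier-marked spots were removed, leaving 56567 probes, log2 intensities were averaged per probe, and each array was scaled to its 75th percentile. A probe was tested if 1 or more groups had it well above background on each of their 2 arrays (31912 probes). The number of arrays limits the precision.

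All arrays entered 1 fit in limma 3.58.1 (R 4.3.3, data.table in version 1.17.8, statmod 1.5.0) with 1 mean per group, moderated statistics and Benjamini-Hochberg adjustment over all probes tested, for 7 comparisons. The fit was tested on simulated data. The methods' threshold is a fold of 2 at an unadjusted p of 0.05. Where a group was not well above background on either array, a fold is given as at least N, set against the higher of the lowest detected signal and the probe's own.

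Named genes are the 10 members with every probe, Ptger2, Ptger4, Ptgs2, Creb1 and Crtc1 to Crtc3, per list up to 5 genes with the largest change past the thresholds, and the 3 genes of most like pattern. Il6, Lif, Rgs2 and the markers named were chosen after their values were seen, and 1 gene was left out of the lists and is not reported here. The members and lists were chosen with earlier results of these data known. Marker lists of endothelium, muscle, adipose tissue and epidermis were counted too: in the combination at adjusted p and a fold of 2, 1 of 8, 0 of 10, 0 of 8 and 0 of 3 tested genes passed. Promoters came from RefSeq (GRCm38.p6), motifs were searched with Python 3.11.15, and plots used matplotlib 3.10.9.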

Additional observations from a re-analysis of the deposited data

Results flagged for a closer look

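For Nr4a1, the antibody arrays lay below both vehicle arrays, whereas with TP-16 present the combination arrays lay above both TP-16 arrays, so every array moved the opposite way in the 2 settings. The difference between these effects, taken in limma as the departure from additivity, was 0.49 on the log2 scale, with an adjusted p of 0.705. Of all genes, 51% had arrays that did not overlap between the antibody and vehicle and 61% between the combination and TP-16. For Egr1, both TP-16 arrays lay above both vehicle arrays, and both combination arrays lay below both antibody arrays, with a difference between the effects of -0.55 and an adjusted p of 0.768 in limma. Arrays did not overlap for 58% of all genes between TP-16 and vehicle and for 68.9% between the combination and the antibody. There were probes not tested that were marked well above background on a treated array and on none of the vehicle arrays: one for Crem on 1 combination array, and one for Pde4b on 1 TP-16 array. Neither was higher there than on every vehicle array by a clear margin: the Crem probe was at -4.81 on that array and -4.85 on the first vehicle array, and the Pde4b probe was at -4.47 and -4.60 with TP-16 and higher, at -4.14 and -3.76, with vehicle, where the lowest signal well above background was higher too. The reverse was seen for 2 probes of Pde4d not tested, each well above background on 1 vehicle array and on no treated array.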

How the results depend on the processing

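Areg, Fos, Crem and Nr4a3 kept their direction against vehicle with the combination and over both antibody arms in each alternative run. At a fold of 1.5 in place of 2, the combination had 4 members at unadjusted and at adjusted p (35.1% and 28.7% of all genes), TP-16 had 2 at unadjusted p (15.1%), the combination had 2 against the antibody (15.5%) and 3 against TP-16 (11.1%), both arms had 2 at either p (16.7% and 10.5%), and the departure from additivity had 1 (5.76%). A fit with only the groups compared, and the methods' t-test, left 0 members at adjusted p in the combination at any fold, and that t-test left 0 at a fold of 2 for TP-16, for the combination against either single agent and, at adjusted p, over both arms. Without a filter on dim probes, 2 members passed adjusted p in the combination. Normexp background correction gave 1 member at adjusted p with TP-16 (19.8% of all genes), 4 in the combination against the antibody (23.9%, with 1 at a fold of 2 against 1.61%) and 1 against TP-16 (1.01%). Only probes above background on all arrays gave 1 member against the antibody (6.91%). Trended moderation gave 2 against the antibody (10.5%, with 1 at a fold of 2 against 1.63%) and 1 against TP-16 (1.45%). Quantile normalization and the authors' log2 values each gave 2 against TP-16 at a fold of 2 and unadjusted p (4.18%). The cause was not tested. The share of all genes is not given for the fit of only the groups compared, the t-test or the run without a filter. It is also not given below for the runs without single arrays or without both keratin arrays. Member counts in all these runs are therefore no result about the members.

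Leaving out 1 array at a time gave 0 to 2 members at a fold of 2 and 0 to 4 at any fold, both at adjusted p, for the combination, 0 to 1 and 0 to 3 over both arms, 0 to 1 at unadjusted p for TP-16, for the antibody and for additivity, and 0 to 3 for the combination against TP-16. Signs turned in these members, none called at adjusted p in that comparison: Pde4d, at -0.31 with TP-16 and -0.35 with the antibody, went to 0.19 with quantile normalization and with the authors' values and to 0.58 with the median of its probes (TP-16), to 0.61 with that median (antibody), to -0.32 (combination) and -0.25 (both arms) with normexp, and Nr4a1 (combination) went to 0.0172 with quantile normalization, 0.0193 with the authors' values and 0.0493 with normexp. Without 1 array, Pde4d ranged from -0.87 to 0.25 (TP-16), -0.91 to 0.21 (antibody), -0.45 to 0.67 (combination) and -0.20 to 0.36 (both arms), Pde4b from -0.464 to 0.0853 (TP-16) and -0.16 to 0.16 (antibody), Nr4a2 from -0.0043 to 0.21 (antibody), Dusp1 from -0.085 to 0.168 (antibody), Nr4a1 from -0.132 to 0.0239 (combination), Egr1 from -0.53 to 0.0061 (combination) and Areg, at -0.43, from -0.875 to 0.0187 (additivity).

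Leaving out both arrays high in epidermal keratins, an alternative chosen after seeing the data, left each single agent with 1 sample, assumed to vary like the other groups, and so fewer residual degrees of freedom. It left 0 members at adjusted p in the combination and over both arms, at any fold, and 0 in the combination against TP-16 at a fold of 2 and unadjusted p. Signs turned for Pde4b, to 0.0853 (TP-16) and 0.16 (antibody), Dusp1, to -0.085 (antibody), and Areg, to 0.0594 (additivity).

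The replicate numbers are shared by name only: replicate differences correlated between groups at -0.193 to 0.29. With the replicate number as a block, 3 members passed adjusted p in the combination, since Crem went to 0.0601, and 2 over both arms, since Nr4a3 went to 0.0704. The main fit had 4 and 3 members, beside 35.6% and 19.8% of all genes, and the share under the block is not given here.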
